A study of Rattus norvegicus with 35 samples.

Results

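Of 42 genes for ribosome biogenesis, the making of ribosomes in the nucleolus, 40 could be read in neonatal rat ventricular myocytes (NRVMs) exposed to cyclic mechanical stretch. The list names the 42 by their role in the pathway, and it was chosen with earlier results of these data known. The 40 stand among 14217 genes that had a probe set of their own on the array. Npm1 was read only by 3 probe sets that also matched Npm1-ps9, a pseudogene, and no probe set was annotated to Npm3, so neither is given a value.

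Ribosomes are assembled from ribosomal RNA and ribosomal proteins. RNA polymerase I copies the ribosomal DNA into a long precursor RNA, and small nucleolar ribonucleoproteins (snoRNPs) modify its nucleotides. Large assemblies of processing factors cut and fold the precursor into the small and the large subunit before both leave the nucleus. In heart muscle cells, a higher capacity to make protein is a known part of hypertrophic growth. The supply of ribosomes is one determinant of that capacity.

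The cells came from the ventricles of Sprague-Dawley rats aged 2 to 4 days, and were the myocyte-enriched fraction that stayed unattached in a pre-plating step. They were grown on collagen-coated plates with a flexible bottom, in serum-free medium after the first night, and stretched by a computer-controlled vacuum for 1, 4, 12, 24 or 48 h, while control cells on the same kind of plate stayed unstretched. Within a culture, stretch began at staggered times and ended together. There were 5 arrays in each of 7 groups, 35 in all, run as 2 sets: set I held a control and 1, 4 and 12 h, and set II its own control and 24 and 48 h. Every duration was set against the control of the same set, and levels were not compared across sets. Primary cultures of this kind keep other cardiac cells, and the replicates are described as biological, so the p-values measure the spread between these samples.

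Values are log2 of the deposited RMA intensity, and a change is the difference of log2 group means with its standard error (SE), n = 5 arrays per group. A gene was called higher or lower where limma's moderated test gave a Benjamini-Hochberg adjusted p under 0.05 over 31042 probe sets. Arrays give no read depth, so the number of arrays and their spread (a median residual SD of 0.115 log2 in set I and 0.120 in set II) set the precision. Heart muscle genes were bright in the set I controls, the 15 cardiomyocyte markers lying at percentile 65.4 of all genes (Tbx5) or above. The 12 fibroblast markers ran from 37.0 (Fap) to 99.8 (Col3a1), the 9 endothelial markers from 13.1 (Vwf) to 75.5 (Emcn) and the 11 macrophage markers from 4.78 (Cd163) to 81.3 (Lyz2).

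Ribosome biogenesis genes rose together from the first hour of stretch and were still raised at the last time point. Of the 40 genes, 28 were called higher after 1 h, and 39 after each of 4, 12, 24 and 48 h, and none was called lower at any time. Over all genes the share called higher was 8.24%, 17.1%, 19.4%, 13.5% and 22.5% at the 5 times, and the share called lower was 8.3%, 19.2%, 19.7%, 10.1% and 18.4%. The median change of the 40 genes was 0.21, 0.57, 0.50, 0.45 and 0.60 log2 at the 5 times, folds of 1.16, 1.49, 1.41, 1.37 and 1.52, while the median over all genes lay between -0.0035 and 0.0445. In such bulk samples more cells of a kind and more RNA per cell cannot be told apart.

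The rises were moderate in size. A change of at least 1.5-fold with adjusted p under 0.05 was reached upward by 0, 19, 13, 11 and 20 members in order of time, against 0.999%, 1.76%, 1.7%, 1.71% and 3.83% of all genes, and downward by none, against 0.324%, 1.81%, 2.4%, 1.61% and 5.26%. In all, 25 of the 40 reached it at 1 time or more and 7 at 4 times, as read by the brightest probe set of each gene. The 5 stretched arrays all lay above the 5 controls for 24, 38, 39, 34 and 40 genes in order of time, against 8.57%, 13.5%, 17.8%, 10.3% and 17.1% of all genes. Counted by gene, 28 members were called higher at all 5 times and 11 at 4 of them, and only Nop10 was never called. Shares over all genes were not computed for these counts across times, nor for the 25 and 7 past 1.5-fold. Times of a set share their controls. At 1 h, the 12 genes not called were Polr1b, Polr1c, Ncl, Dkc1, Nop10, Noc4l, Nob1, Nol6, Imp4, Ddx10, Pes1 and Rrp1b. Calls near the threshold depended on single arrays: leaving out 1 array ended the 1 h call of Nhp2 in 7 cases, Nop16 in 5, Nolc1 and Nop2 in 4 each, and Bysl and Ddx56 in 1 each, with adjusted p of 0.0503 to 0.121.

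**Figure D1:**
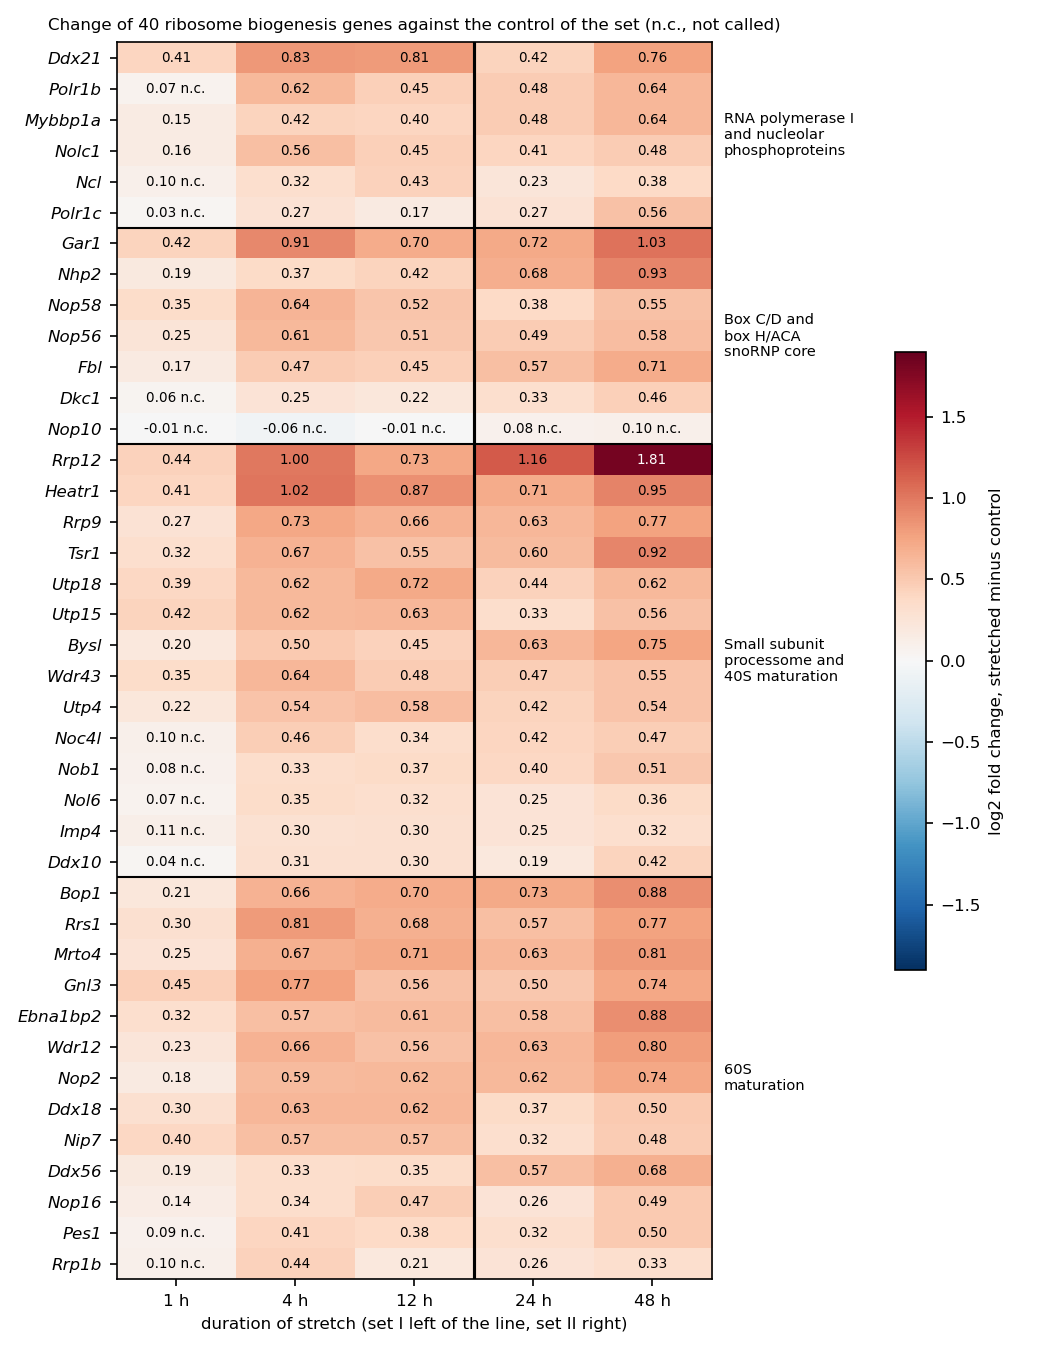
Log2 fold change of each of the 40 genes (rows, by role and by mean change) at each duration of stretch against the control of its set (columns), red for higher and blue for lower, with the value printed and n.c. where the change was not called. All rows but that of Nop10 are red from 4 h on, and the darkest cell is Rrp12 at 48 h, at 1.81.

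The mean of the 40 genes on each array showed the same course without any test. Relative to the mean of the controls of its set, it lay between -0.0163 and 0.0326 on the set I controls, from 0.151 to 0.279 after 1 h, from 0.501 to 0.574 after 4 h and from 0.457 to 0.527 after 12 h. The control arrays of set II ran from -0.0551 to 0.068, those of 24 h from 0.392 to 0.609 and those of 48 h from 0.491 to 0.761. Every stretched array lay above every control array of its set, whereas the ranges of 4 h and 12 h overlapped, as did those of 24 h and 48 h.

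**Figure D2:**
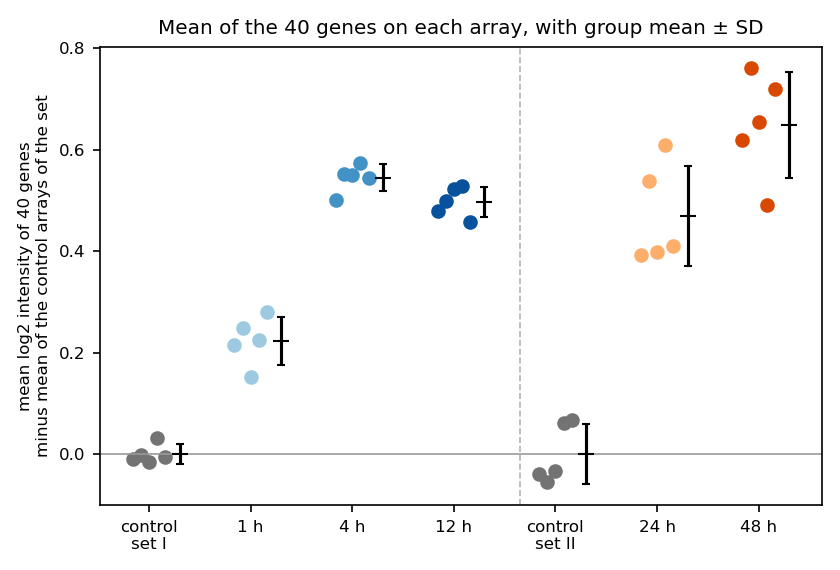
Mean log2 intensity of the 40 genes on each array minus the mean over the control arrays of the set (vertical axis), for the 7 groups (horizontal axis); points are arrays, and the bar beside them is the group mean ± SD, n = 5. Control arrays lie between -0.0551 and 0.068 and every stretched array lies at 0.151 or above.

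Between times of one set, the control arrays cancel out. From 1 h to 4 h, 35 of the 40 genes were higher and none lower (8.64% and 8.89% of all genes), with a median of 0.31 log2. Heatr1 alone gained over 1.5-fold in that step (0.61 ± 0.070 log2, limma adjusted p = 5.99e-06), a size reached by 0.253% of genes, and without replicate 2 of 1 h it was under that limit. From 4 h to 12 h, Nop16 was called higher (0.14 ± 0.043, adjusted p = 0.044, limma), a call lost without any 1 of 8 arrays, and Gar1, Wdr43, Rrp12, Gnl3 and Rrp1b were called lower, with changes of -0.20, -0.15, -0.27, -0.21 and -0.24 log2, against 5.85% and 6.22% of all genes. The other 34 did not pass the test in that step. From 1 h to 12 h, 37 were called higher (13.2%) and none lower (13.0%).

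From 24 h to 48 h, 7 genes were called higher and none lower, against 2.97% and 5.73% of all genes. They were Rrp12 (0.65 ± 0.15 log2), Polr1c (0.28 ± 0.051), Tsr1 (0.32 ± 0.072), Ebna1bp2 (0.30 ± 0.067), Nhp2 (0.24 ± 0.054), Nop16 (0.23 ± 0.044) and Ddx10 (0.23 ± 0.054). The estimates of all 40 genes were larger at 48 h than at 24 h, though 33 of these steps did not pass the test. In set I the largest estimate fell at 4 h for 25 genes and at 12 h for 15. Neither count was made over all genes. The median step from 24 h to 48 h was 0.16 log2 for the 40 and 0.0069 over all genes.

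The first stage is transcription of the ribosomal DNA and the nucleolar proteins around it. Of the 6 measured genes of this group, 3 were called higher at 1 h and all 6 at each later time. Over all genes the share was 8.24% at 1 h and 13.5% to 22.5% later. Median changes of the 6 were 0.13, 0.49, 0.44, 0.42 and 0.60 log2 in order of time. Ddx21 changed most in set I and at 48 h, and Mybbp1a and Polr1b had the largest estimates at 24 h.

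Without stretch, Ddx21 (probe set 1375901_at), a nucleolar DEAD-box RNA helicase that couples transcription and processing of ribosomal RNA, read 9.85, 9.82, 9.91, 10.03 and 9.71 on the 5 arrays of set I. Stretched arrays gave 10.31, 10.23, 10.16, 10.27 and 10.43 after 1 h, 10.79, 10.77, 10.68, 10.80 and 10.45 after 4 h and 10.53, 10.78, 10.74, 10.70 and 10.61 after 12 h for Ddx21. Ddx21 on every stretched array exceeded all its controls. Ddx21 differed by 0.41 ± 0.072, 0.83 ± 0.072 and 0.81 ± 0.072 log2 after the 3 times, with limma adjusted p of 0.000412, 2.76e-08 and 3.27e-08. Values of Ddx21 in set II were 10.19, 10.24, 10.23, 10.32 and 9.996 without stretch, 10.20, 10.66, 10.72, 10.83 and 10.70 after 24 h and 10.72, 10.96, 10.96, 10.95 and 11.19 after 48 h. Ddx21 was above every control on the arrays of 48 h and overlapped the controls on those of 24 h. Ddx21 differed by 0.42 ± 0.11 and 0.76 ± 0.11 log2 after 24 h and 48 h, with limma adjusted p of 0.0108 and 3.74e-05.

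Control arrays of set I gave 7.63, 7.64, 7.73, 7.55 and 7.51 for Polr1b (probe set 1387268_at), the second-largest subunit of RNA polymerase I. The Polr1b signal was 7.64, 7.63, 7.63, 7.74 and 7.78 after 1 h, 8.19, 8.22, 8.30, 8.27 and 8.16 after 4 h and 8.02, 8.14, 8.18, 8.04 and 7.94 after 12 h. Polr1b was above every control on the arrays of 4 h and 12 h and overlapped the controls on those of 1 h. For Polr1b the log2 change after the 3 times came to 0.07 ± 0.054, 0.62 ± 0.054 and 0.45 ± 0.054 (limma, adjusted p = 0.477, 2.59e-08 and 1.22e-06). For set II, Polr1b stood at 7.60, 7.61, 7.65, 7.81 and 7.83 without stretch, at 8.20, 8.26, 8.11, 8.18 and 8.15 after 24 h and at 8.25, 8.57, 8.36, 8.10 and 8.40 after 48 h. Polr1b was again above every control with stretch. For Polr1b the log2 change after 24 h and 48 h came to 0.48 ± 0.076 and 0.64 ± 0.076 (limma, adjusted p = 0.000378 and 7.24e-06). Mybbp1a (probe set 1387779_at), a nucleolar Myb-binding protein involved in ribosomal RNA synthesis, had control values of 10.03, 10.14, 10.03, 10.06 and 10.05 in set I. The arrays of 1 h read 10.22, 10.25, 10.19, 10.27 and 10.14, those of 4 h 10.43, 10.50, 10.56, 10.52 and 10.42 and those of 12 h 10.44, 10.44, 10.50, 10.50 and 10.44. Each stretched array gave more Mybbp1a signal than any control, and the log2 change was 0.15 ± 0.039, 0.42 ± 0.039 and 0.40 ± 0.039 after the 3 times (limma, adjusted p = 0.0109, 6.49e-08 and 9.64e-08). Mybbp1a controls of set II read 9.75, 9.80, 9.79, 9.97 and 9.99, against 10.38, 10.43, 10.19, 10.43 and 10.26 after 24 h and 10.49, 10.59, 10.48, 10.33 and 10.61 after 48 h. Both Mybbp1a groups with stretch stayed clear of the controls, and the log2 change was 0.48 ± 0.070 and 0.64 ± 0.070 after 24 h and 48 h (limma, adjusted p = 0.00022 and 3.13e-06).

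The other 3 genes of the group did not reach 1.5-fold at any time by their brightest probe set, although other probe sets of Nolc1 did. Polr1c, a subunit shared by RNA polymerases I and III, changed by 0.27 ± 0.047 log2 at 4 h and 0.56 ± 0.051 at 48 h. Nolc1, a chaperone of snoRNPs, changed by 0.56 ± 0.046 and 0.48 ± 0.086, and Ncl, the abundant nucleolar protein nucleolin, by 0.32 ± 0.049 and 0.38 ± 0.067. Nucleolin at 24 h (0.23 ± 0.067, limma adjusted p = 0.0237) lost its call when any 1 of 4 arrays was left out, with adjusted p of 0.053 to 0.0643.

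The modification machinery consists of box C/D snoRNPs, which guide methylation of ribosomal RNA, and box H/ACA snoRNPs, which guide its pseudouridylation. Of 7 core genes, 5 were called higher at 1 h and 6 at each later time, the exception being Nop10. The share of all genes was 8.24% at 1 h and 13.5% to 22.5% later. Medians of the 7 in order of time were 0.19, 0.47, 0.45, 0.49 and 0.58 log2. The H/ACA protein Gar1 had the largest change of the group at every time.

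Gar1 (probe set 1374857_at), a core protein of the H/ACA particle, read 8.36, 8.36, 8.27, 8.34 and 8.33 on the unstretched arrays of set I. The values were 8.79, 8.86, 8.64, 8.78 and 8.72 after 1 h, 9.17, 9.22, 9.23, 9.23 and 9.35 after 4 h and 9.05, 8.97, 9.07, 9.08 and 9.002 after 12 h. The Gar1 values with stretch did not overlap those without. Gar1 differed by 0.42 ± 0.045, 0.91 ± 0.045 and 0.70 ± 0.045 log2 after the 3 times, with limma adjusted p of 9.09e-07, 8.43e-12 and 2.5e-10. Values of Gar1 in set II were 8.44, 8.54, 8.50, 8.71 and 8.70 without stretch, 9.20, 9.46, 9.12, 9.57 and 9.13 after 24 h and 9.49, 9.87, 9.65, 9.24 and 9.76 after 48 h. No Gar1 value with stretch reached the control range. Gar1 differed by 0.72 ± 0.12 and 1.03 ± 0.12 log2 after 24 h and 48 h, with limma adjusted p of 0.00039 and 3.66e-06. Without stretch, Nhp2 (probe set 1371539_at), an RNA-binding core protein of the same particle, read 9.85, 9.79, 9.79, 9.72 and 9.93 on the 5 arrays of set I. Stretched arrays gave 9.98, 10.001, 9.93, 9.93 and 10.20 after 1 h, 10.09, 10.03, 10.20, 10.26 and 10.34 after 4 h and 10.24, 10.16, 10.23, 10.30 and 10.25 after 12 h for Nhp2. Nhp2 was above every control on the arrays of 4 h and 12 h and overlapped the controls on those of 1 h. For Nhp2 the log2 change after the 3 times came to 0.19 ± 0.061, 0.37 ± 0.061 and 0.42 ± 0.061 (limma, adjusted p = 0.0414, 8.46e-05 and 1.58e-05). For set II, Nhp2 stood at 9.58, 9.56, 9.62, 9.61 and 9.77 without stretch, at 10.26, 10.41, 10.27, 10.31 and 10.31 after 24 h and at 10.66, 10.61, 10.50, 10.53 and 10.47 after 48 h. The later Nhp2 groups were also apart from their controls. For Nhp2 the log2 change after 24 h and 48 h came to 0.68 ± 0.054 and 0.93 ± 0.054 (limma, adjusted p = 2.21e-06 and 8.15e-09). Its call at 1 h was lost without any 1 of 7 arrays, with adjusted p of 0.0582 to 0.121. Dkc1, the pseudouridine synthase of the particle, was not called at 1 h (0.06 ± 0.064) and changed by 0.25 ± 0.064 at 4 h and 0.46 ± 0.083 at 48 h.

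Nop10, the smallest H/ACA protein, was the one gene that was never called, and its array values are given because of that. Its log2 intensity was 11.89, 11.86, 11.90, 11.86 and 11.88 on the set I controls, 11.86, 11.88, 11.86, 11.81 and 11.91 after 1 h, 11.85, 11.82, 11.81, 11.88 and 11.74 after 4 h and 11.90, 11.84, 11.83, 11.84 and 11.93 after 12 h. In set II it was 11.92, 11.84, 11.94, 11.93 and 11.98 on the controls, 11.998, 11.99, 12.06, 11.95 and 11.99 after 24 h and 12.02, 12.03, 12.02, 12.05 and 12.01 after 48 h. The 48 h arrays lay above every control, and the change of 0.10 ± 0.041 log2 did not pass the limma test (adjusted p = 0.0639), although 6 alternatives of test, scaling or filter called it there. Its changes at 1, 4, 12 and 24 h were -0.01, -0.06, -0.01 and 0.08 log2. With a mean of 11.9 log2 over the 35 arrays, it was among the brightest of the 40.

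Control arrays of set I gave 10.38, 10.37, 10.30, 10.33 and 10.26 for Nop56 (probe set 1388622_at), a core protein of the C/D particle. The Nop56 signal was 10.54, 10.62, 10.53, 10.59 and 10.61 after 1 h, 10.88, 10.95, 10.97, 10.99 and 10.91 after 4 h and 10.83, 10.83, 10.84, 10.90 and 10.80 after 12 h. All Nop56 controls lay below the stretched arrays, and the log2 change was 0.25 ± 0.038, 0.61 ± 0.038 and 0.51 ± 0.038 after the 3 times (limma, adjusted p = 8.19e-05, 2.3e-10 and 1.99e-09). Nop56 controls of set II read 10.37, 10.34, 10.35, 10.56 and 10.64, against 10.94, 10.97, 10.87, 11.05 and 10.88 after 24 h and 10.95, 11.15, 11.003, 10.87 and 11.19 after 48 h. Nop56 was again above every control with stretch, and the log2 change was 0.49 ± 0.075 and 0.58 ± 0.075 after 24 h and 48 h (limma, adjusted p = 0.000281 and 1.5e-05). Nop58 (probe set 1368173_at), its partner in the particle, had control values of 10.32, 10.32, 10.35, 10.34 and 10.43 in set I. The arrays of 1 h read 10.82, 10.72, 10.68, 10.71 and 10.60, those of 4 h 10.87, 10.94, 11.08, 11.05 and 11.01 and those of 12 h 10.80, 10.88, 10.88, 10.94 and 10.86. Each stretched array gave more Nop58 signal than any control. Nop58 differed by 0.35 ± 0.048, 0.64 ± 0.048 and 0.52 ± 0.048 log2 after the 3 times, with limma adjusted p of 2.35e-05, 3.34e-09 and 4.24e-08. Values of Nop58 in set II were 10.59, 10.66, 10.79, 10.78 and 10.74 without stretch, 10.95, 11.14, 11.06, 11.30 and 11.02 after 24 h and 11.17, 11.51, 11.18, 11.08 and 11.37 after 48 h. Both Nop58 groups with stretch stayed clear of the controls. Nop58 differed by 0.38 ± 0.083 and 0.55 ± 0.083 log2 after 24 h and 48 h, with limma adjusted p of 0.00392 and 6.72e-05.

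Fbl (probe set 1388528_at), fibrillarin, the methyltransferase of the C/D particle, read 10.15, 10.12, 10.13, 10.17 and 10.17 on the unstretched arrays of set I. The values were 10.39, 10.30, 10.22, 10.24 and 10.42 after 1 h, 10.64, 10.55, 10.64, 10.64 and 10.63 after 4 h and 10.55, 10.66, 10.57, 10.61 and 10.61 after 12 h. The Fbl values with stretch did not overlap those without. For Fbl the log2 change after the 3 times came to 0.17 ± 0.042, 0.47 ± 0.042 and 0.45 ± 0.042 (limma, adjusted p = 0.00983, 3.61e-08 and 5.47e-08). For set II, Fbl stood at 10.14, 10.14, 10.15, 10.19 and 10.16 without stretch, at 10.64, 10.79, 10.70, 10.78 and 10.69 after 24 h and at 10.81, 10.96, 10.86, 10.76 and 10.93 after 48 h. No Fbl value with stretch reached the control range. For Fbl the log2 change after 24 h and 48 h came to 0.57 ± 0.049 and 0.71 ± 0.049 (limma, adjusted p = 3.44e-06 and 2.93e-08).

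**Figure D3:**
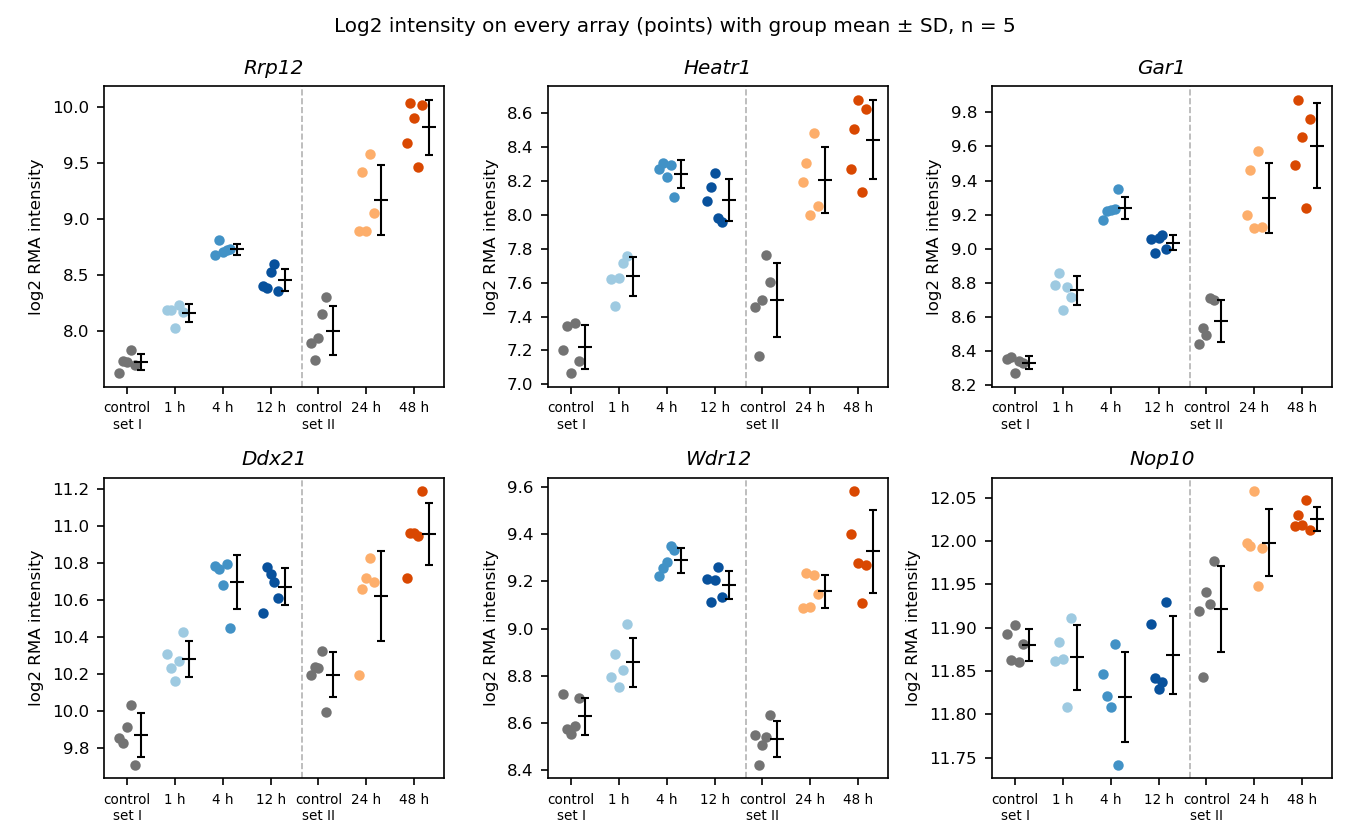
Log2 RMA intensity (vertical axes, each with its own range) of Rrp12, Heatr1, Gar1, Ddx21, Wdr12 and Nop10 on all 35 arrays, by group; points are arrays, bars are the group mean ± SD (n = 5), and the dashed line divides set I from set II. The 4 h, 12 h and 48 h points lie above the control points of their set for the first 5 genes, and the points of Nop10 span 11.7 to 12.1.

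The small subunit is built on the processome, a large particle around the U3 snoRNP, and then trimmed and exported. Its 14 genes included the largest change at each of 4, 12, 24 and 48 h. Called higher were 9 at 1 h and all 14 at each later time, against 8.24% of all genes at 1 h and 13.5% to 22.5% later. Medians of the 14 were 0.24, 0.58, 0.52, 0.43 and 0.55 log2 in order of time. Heatr1 led at 4 h and 12 h and Rrp12 at 1, 24 and 48 h.

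Without stretch, Rrp12 (probe set 1383675_at), a HEAT-repeat protein needed for late maturation and nuclear export of the small subunit, read 7.63, 7.74, 7.73, 7.84 and 7.70 on the 5 arrays of set I. Stretched arrays gave 8.19, 8.19, 8.03, 8.24 and 8.17 after 1 h, 8.68, 8.81, 8.71, 8.72 and 8.74 after 4 h and 8.41, 8.39, 8.53, 8.60 and 8.36 after 12 h for Rrp12. Rrp12 on every stretched array exceeded all its controls, and the log2 change was 0.44 ± 0.053, 1.00 ± 0.053 and 0.73 ± 0.053 after the 3 times (limma, adjusted p = 6.2e-06, 2.47e-11 and 1.79e-09). Rrp12 controls of set II read 7.90, 7.75, 7.94, 8.15 and 8.30, against 8.89, 9.42, 8.90, 9.58 and 9.06 after 24 h and 9.68, 10.04, 9.90, 9.46 and 10.02 after 48 h. The later Rrp12 groups were also apart from their controls, and the log2 change was 1.16 ± 0.15 and 1.81 ± 0.15 after 24 h and 48 h (limma, adjusted p = 7.16e-05 and 1.38e-07). At 48 h this was a 3.51-fold change, and 48 h differed from 24 h by 0.65 ± 0.15 log2 (limma adjusted p = 0.0143), a step that fell under 1.5-fold without replicate 1 or replicate 3 of 24 h.

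Control arrays of set I gave 7.20, 7.34, 7.07, 7.36 and 7.14 for Heatr1 (probe set 1383685_at), a processome protein that also acts in RNA polymerase I transcription. The Heatr1 signal was 7.62, 7.46, 7.63, 7.72 and 7.76 after 1 h, 8.27, 8.31, 8.23, 8.30 and 8.11 after 4 h and 8.08, 8.17, 8.25, 7.98 and 7.96 after 12 h. All Heatr1 controls lay below the stretched arrays. Heatr1 differed by 0.41 ± 0.070, 1.02 ± 0.070 and 0.87 ± 0.070 log2 after the 3 times, with limma adjusted p of 0.000294, 1.06e-09 and 7.59e-09. Values of Heatr1 in set II were 7.45, 7.17, 7.50, 7.76 and 7.60 without stretch, 8.19, 8.31, 7.998, 8.49 and 8.05 after 24 h and 8.27, 8.51, 8.68, 8.14 and 8.63 after 48 h. Heatr1 was again above every control with stretch. Heatr1 differed by 0.71 ± 0.12 and 0.95 ± 0.12 log2 after 24 h and 48 h, with limma adjusted p of 0.0008 and 1.76e-05.

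Utp15 (probe set 1393320_at), a subunit of the t-UTP complex, which binds the nascent precursor RNA, had control values of 7.96, 7.92, 8.08, 8.22 and 7.86 in set I. The arrays of 1 h read 8.46, 8.34, 8.36, 8.48 and 8.49, those of 4 h 8.63, 8.74, 8.61, 8.66 and 8.48 and those of 12 h 8.58, 8.67, 8.69, 8.67 and 8.58. Each stretched array gave more Utp15 signal than any control. For Utp15 the log2 change after the 3 times came to 0.42 ± 0.062, 0.62 ± 0.062 and 0.63 ± 0.062 (limma, adjusted p = 6.84e-05, 1.71e-07 and 9.84e-08). For set II, Utp15 stood at 8.61, 8.54, 8.67, 8.86 and 8.42 without stretch, at 8.62, 9.03, 9.03, 9.12 and 8.94 after 24 h and at 9.05, 9.25, 9.17, 9.10 and 9.32 after 48 h. Utp15 was above every control on the arrays of 48 h and overlapped the controls on those of 24 h. For Utp15 the log2 change after 24 h and 48 h came to 0.33 ± 0.095 and 0.56 ± 0.095 (limma, adjusted p = 0.0233 and 0.000208). At 24 h its call was lost without any 1 of 5 arrays, with adjusted p of 0.0518 to 0.0612. Wdr43 (probe set 1388709_at), another t-UTP subunit, read 8.24, 8.31, 8.23, 8.30 and 8.22 on the unstretched arrays of set I. The values were 8.61, 8.59, 8.49, 8.64 and 8.70 after 1 h, 8.92, 8.95, 8.88, 8.89 and 8.84 after 4 h and 8.74, 8.77, 8.79, 8.79 and 8.64 after 12 h. The Wdr43 values with stretch did not overlap those without, and the log2 change was 0.35 ± 0.043, 0.64 ± 0.043 and 0.48 ± 0.043 after the 3 times (limma, adjusted p = 8.59e-06, 8.56e-10 and 2.92e-08). Wdr43 controls of set II read 8.61, 8.59, 8.63, 8.74 and 8.81, against 9.14, 9.19, 9.03, 9.30 and 9.07 after 24 h and 9.14, 9.36, 9.21, 9.02 and 9.38 after 48 h. No Wdr43 value with stretch reached the control range, and the log2 change was 0.47 ± 0.074 and 0.55 ± 0.074 after 24 h and 48 h (limma, adjusted p = 0.000356 and 2.65e-05).

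Without stretch, Utp18 (probe set 1393043_at), a subunit of the UTP-B complex of the processome, read 5.57, 5.77, 5.97, 6.12 and 5.70 on the 5 arrays of set I. Stretched arrays gave 6.12, 6.24, 6.09, 6.24 and 6.38 after 1 h, 6.47, 6.65, 6.35, 6.48 and 6.27 after 4 h and 6.51, 6.86, 6.52, 6.46 and 6.39 after 12 h for Utp18. Utp18 was above every control on the arrays of 4 h and 12 h and overlapped the controls on those of 1 h. Utp18 differed by 0.39 ± 0.10, 0.62 ± 0.10 and 0.72 ± 0.10 log2 after the 3 times, with limma adjusted p of 0.011, 6.44e-05 and 9.02e-06. Values of Utp18 in set II were 5.98, 6.30, 6.15, 6.42 and 6.09 without stretch, 6.36, 6.55, 6.66, 6.96 and 6.59 after 24 h and 6.77, 6.71, 6.81, 6.77 and 6.99 after 48 h. Utp18 was above every control on the arrays of 48 h and overlapped the controls on those of 24 h. Utp18 differed by 0.44 ± 0.10 and 0.62 ± 0.10 log2 after 24 h and 48 h, with limma adjusted p of 0.00645 and 0.000151. Control arrays of set I gave 7.79, 7.72, 7.75, 7.72 and 7.76 for Rrp9 (probe set 1374836_at), a protein of the U3 snoRNP. The Rrp9 signal was 7.90, 8.04, 8.06, 8.0002 and 8.11 after 1 h, 8.35, 8.48, 8.49, 8.45 and 8.61 after 4 h and 8.25, 8.43, 8.54, 8.48 and 8.34 after 12 h. All Rrp9 controls lay below the stretched arrays. For Rrp9 the log2 change after the 3 times came to 0.27 ± 0.055, 0.73 ± 0.055 and 0.66 ± 0.055 (limma, adjusted p = 0.00165, 4.1e-09 and 1.33e-08). For set II, Rrp9 stood at 7.90, 7.95, 8.05, 7.91 and 8.33 without stretch, at 8.64, 8.81, 8.43, 8.84 and 8.58 after 24 h and at 8.83, 8.98, 8.75, 8.56 and 8.89 after 48 h. Rrp9 was again above every control with stretch. For Rrp9 the log2 change after 24 h and 48 h came to 0.63 ± 0.099 and 0.77 ± 0.099 (limma, adjusted p = 0.000347 and 1.46e-05).

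Bysl (probe set 1389200_at), bystin, a factor of late precursors of the small subunit, had control values of 8.68, 8.62, 8.67, 8.69 and 8.46 in set I. The arrays of 1 h read 8.74, 8.88, 8.78, 8.86 and 8.88, those of 4 h 8.99, 9.16, 9.18, 9.24 and 9.07 and those of 12 h 9.08, 9.06, 9.12, 9.14 and 8.95. Each stretched array gave more Bysl signal than any control, and the log2 change was 0.20 ± 0.055, 0.50 ± 0.055 and 0.45 ± 0.055 after the 3 times (limma, adjusted p = 0.0154, 5.61e-07 and 2.24e-06). Bysl controls of set II read 8.63, 8.57, 8.60, 8.80 and 8.82, against 9.25, 9.41, 9.06, 9.59 and 9.26 after 24 h and 9.34, 9.54, 9.48, 9.35 and 9.47 after 48 h. Both Bysl groups with stretch stayed clear of the controls, and the log2 change was 0.63 ± 0.086 and 0.75 ± 0.086 after 24 h and 48 h (limma, adjusted p = 0.000121 and 4.49e-06). Tsr1 (probe set 1375895_at), a GTPase-like factor of late small-subunit maturation, read 9.80, 9.73, 9.77, 9.82 and 9.73 on the unstretched arrays of set I. The values were 10.08, 10.16, 10.02, 10.05 and 10.14 after 1 h, 10.44, 10.49, 10.44, 10.41 and 10.41 after 4 h and 10.34, 10.33, 10.36, 10.36 and 10.24 after 12 h. The Tsr1 values with stretch did not overlap those without. Tsr1 differed by 0.32 ± 0.039, 0.67 ± 0.039 and 0.55 ± 0.039 log2 after the 3 times, with limma adjusted p of 7.22e-06, 1.09e-10 and 1.1e-09. Values of Tsr1 in set II were 9.75, 9.73, 9.67, 9.84 and 9.90 without stretch, 10.35, 10.48, 10.30, 10.36 and 10.38 after 24 h and 10.67, 10.85, 10.69, 10.44 and 10.83 after 48 h. No Tsr1 value with stretch reached the control range. Tsr1 differed by 0.60 ± 0.072 and 0.92 ± 0.072 log2 after 24 h and 48 h, with limma adjusted p of 4.72e-05 and 9.5e-08.

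The remaining 6 genes for the small subunit did not reach 1.5-fold at any time. Utp4 of the t-UTP complex changed by 0.54 ± 0.044 at 4 h and 0.54 ± 0.054 at 48 h, and Noc4l, of the nucleolar complex family, by 0.46 ± 0.051 and 0.47 ± 0.067. Nob1, the nuclease that makes the last cut of small-subunit RNA, changed by 0.33 ± 0.053 and 0.51 ± 0.060. Nol6, Imp4 and Ddx10, all parts of the processome, had changes of 0.35, 0.30 and 0.31 at 4 h and of 0.36, 0.32 and 0.42 at 48 h. The 24 h calls of Nol6 (0.25 ± 0.079) and Ddx10 (0.19 ± 0.054) were near the threshold: 6 and 1 of the left-out arrays, respectively, ended them.

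The large subunit follows a path of its own, with the PeBoW complex (Pes1, Bop1 and Wdr12), GTPases, helicases and methyltransferases. Of its 13 genes, 11 were called higher at 1 h and all 13 at each later time. Among all genes 8.24% were called higher at 1 h and 13.5% to 22.5% later. Medians of the 13 in order of time were 0.23, 0.59, 0.57, 0.57 and 0.74 log2. The largest change was that of Gnl3 at 1 h, Rrs1 at 4 h, Mrto4 at 12 h and Bop1 at 24 h and 48 h, where the estimate for Ebna1bp2 was nearly the same (0.88 log2 for both).

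Without stretch, Gnl3 (probe set 1388953_at), nucleostemin, a nucleolar GTPase, read 9.58, 9.53, 9.53, 9.59 and 9.71 on the 5 arrays of set I. Stretched arrays gave 10.02, 10.05, 9.98, 9.98 and 10.16 after 1 h, 10.32, 10.38, 10.34, 10.33 and 10.44 after 4 h and 10.11, 10.07, 10.17, 10.28 and 10.12 after 12 h for Gnl3. Gnl3 on every stretched array exceeded all its controls. For Gnl3 the log2 change after the 3 times came to 0.45 ± 0.049, 0.77 ± 0.049 and 0.56 ± 0.049 (limma, adjusted p = 1.52e-06, 3.45e-10 and 2.4e-08). For set II, Gnl3 stood at 9.97, 9.87, 10.12, 10.002 and 10.24 without stretch, at 10.57, 10.51, 10.54, 10.64 and 10.47 after 24 h and at 10.76, 11.06, 10.72, 10.46 and 10.91 after 48 h. The later Gnl3 groups were also apart from their controls. For Gnl3 the log2 change after 24 h and 48 h came to 0.50 ± 0.094 and 0.74 ± 0.094 (limma, adjusted p = 0.00128 and 1.31e-05). Control arrays of set I gave 8.89, 8.75, 8.80, 8.87 and 8.74 for Rrs1 (probe set 1376065_at), a regulator of large-subunit assembly. The Rrs1 signal was 9.17, 9.17, 8.97, 9.14 and 9.13 after 1 h, 9.50, 9.59, 9.63, 9.73 and 9.65 after 4 h and 9.45, 9.46, 9.48, 9.52 and 9.52 after 12 h. All Rrs1 controls lay below the stretched arrays, and the log2 change was 0.30 ± 0.050, 0.81 ± 0.050 and 0.68 ± 0.050 after the 3 times (limma, adjusted p = 0.000189, 2.11e-10 and 1.99e-09). Rrs1 controls of set II read 9.14, 9.06, 9.08, 9.14 and 9.01, against 9.46, 9.82, 9.57, 9.91 and 9.53 after 24 h and 9.84, 10.01, 9.83, 9.60 and 9.98 after 48 h. Rrs1 was again above every control with stretch, and the log2 change was 0.57 ± 0.090 and 0.77 ± 0.090 after 24 h and 48 h (limma, adjusted p = 0.000355 and 5.84e-06).

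Bop1 (probe set 1392910_at), a PeBoW scaffold protein, had control values of 8.06, 8.10, 7.99, 8.07 and 8.04 in set I. The arrays of 1 h read 8.23, 8.31, 8.22, 8.22 and 8.34, those of 4 h 8.57, 8.73, 8.64, 8.76 and 8.86 and those of 12 h 8.78, 8.68, 8.81, 8.76 and 8.73. Each stretched array gave more Bop1 signal than any control. Bop1 differed by 0.21 ± 0.049, 0.66 ± 0.049 and 0.70 ± 0.049 log2 after the 3 times, with limma adjusted p of 0.00437, 2.77e-09 and 8.98e-10. Values of Bop1 in set II were 7.97, 7.86, 7.84, 8.16 and 8.10 without stretch, 8.48, 8.83, 8.60, 9.001 and 8.66 after 24 h and 8.97, 8.92, 8.85, 8.73 and 8.87 after 48 h. Both Bop1 groups with stretch stayed clear of the controls. Bop1 differed by 0.73 ± 0.091 and 0.88 ± 0.091 log2 after 24 h and 48 h, with limma adjusted p of 6.6e-05 and 1.59e-06. Wdr12 (probe set 1372218_at), a WD-repeat protein of PeBoW, read 8.72, 8.58, 8.55, 8.59 and 8.71 on the unstretched arrays of set I. The values were 8.79, 8.89, 8.75, 8.83 and 9.02 after 1 h, 9.22, 9.26, 9.28, 9.35 and 9.34 after 4 h and 9.21, 9.11, 9.21, 9.26 and 9.13 after 12 h. The Wdr12 values with stretch did not overlap those without. For Wdr12 the log2 change after the 3 times came to 0.23 ± 0.052, 0.66 ± 0.052 and 0.56 ± 0.052 (limma, adjusted p = 0.00449, 6.83e-09 and 5.64e-08). For set II, Wdr12 stood at 8.55, 8.42, 8.50, 8.54 and 8.63 without stretch, at 9.09, 9.23, 9.09, 9.23 and 9.15 after 24 h and at 9.40, 9.58, 9.28, 9.11 and 9.27 after 48 h. No Wdr12 value with stretch reached the control range. For Wdr12 the log2 change after 24 h and 48 h came to 0.63 ± 0.074 and 0.80 ± 0.074 (limma, adjusted p = 3.97e-05 and 5.07e-07). Pes1, the remaining PeBoW member, was not called at 1 h (0.09 ± 0.039) and changed by 0.41 ± 0.039 at 4 h and 0.50 ± 0.064 at 48 h.

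Without stretch, Nop2 (probe set 1383752_at), a methyltransferase of large-subunit RNA, read 8.48, 8.62, 8.51, 8.57 and 8.63 on the 5 arrays of set I. Stretched arrays gave 8.66, 8.87, 8.62, 8.79 and 8.75 after 1 h, 9.16, 9.11, 9.23, 9.20 and 9.07 after 4 h and 9.20, 9.11, 9.29, 9.19 and 9.12 after 12 h for Nop2. Nop2 was above every control on the arrays of 4 h and 12 h and overlapped the controls on those of 1 h, and the log2 change was 0.18 ± 0.052, 0.59 ± 0.052 and 0.62 ± 0.052 after the 3 times (limma, adjusted p = 0.0252, 2.95e-08 and 1.37e-08). Nop2 controls of set II read 8.67, 8.57, 8.59, 8.70 and 8.78, against 9.19, 9.36, 9.12, 9.53 and 9.19 after 24 h and 9.28, 9.57, 9.43, 9.20 and 9.52 after 48 h. The later Nop2 groups were also apart from their controls, and the log2 change was 0.62 ± 0.085 and 0.74 ± 0.085 after 24 h and 48 h (limma, adjusted p = 0.000122 and 4.57e-06). The 1 h call of Nop2 was lost without any 1 of 4 arrays, with adjusted p of 0.064 to 0.0835. Control arrays of set I gave 8.15, 8.17, 8.18, 8.11 and 8.21 for Mrto4 (probe set 1372043_at), a relative of the ribosomal stalk protein Rplp0. The Mrto4 signal was 8.37, 8.41, 8.40, 8.35 and 8.55 after 1 h, 8.71, 8.67, 8.87, 8.94 and 8.99 after 4 h and 8.79, 8.92, 8.82, 9.01 and 8.85 after 12 h. All Mrto4 controls lay below the stretched arrays. Mrto4 differed by 0.25 ± 0.060, 0.67 ± 0.060 and 0.71 ± 0.060 log2 after the 3 times, with limma adjusted p of 0.00563, 3.25e-08 and 1.19e-08. Values of Mrto4 in set II were 7.99, 7.87, 7.95, 7.88 and 8.15 without stretch, 8.66, 8.59, 8.58, 8.68 and 8.45 after 24 h and 8.90, 8.97, 8.74, 8.59 and 8.71 after 48 h. Mrto4 was again above every control with stretch. Mrto4 differed by 0.63 ± 0.075 and 0.81 ± 0.075 log2 after 24 h and 48 h, with limma adjusted p of 4.53e-05 and 4.98e-07.

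Ebna1bp2 (probe set 1388397_at), a nucleolar assembly factor, had control values of 9.68, 9.77, 9.76, 9.81 and 9.70 in set I. The arrays of 1 h read 10.09, 10.03, 9.92, 10.08 and 10.19, those of 4 h 10.34, 10.34, 10.30, 10.36 and 10.21 and those of 12 h 10.32, 10.28, 10.40, 10.39 and 10.34. Each stretched array gave more Ebna1bp2 signal than any control. For Ebna1bp2 the log2 change after the 3 times came to 0.32 ± 0.048, 0.57 ± 0.048 and 0.61 ± 0.048 (limma, adjusted p = 9.13e-05, 1.89e-08 and 6.27e-09). For set II, Ebna1bp2 stood at 9.67, 9.54, 9.62, 9.73 and 9.65 without stretch, at 9.99, 10.35, 10.20, 10.35 and 10.19 after 24 h and at 10.50, 10.60, 10.45, 10.46 and 10.59 after 48 h. Both Ebna1bp2 groups with stretch stayed clear of the controls. For Ebna1bp2 the log2 change after 24 h and 48 h came to 0.58 ± 0.067 and 0.88 ± 0.067 (limma, adjusted p = 3.39e-05 and 6.87e-08). Ddx18 (probe set 1377945_at), a DEAD-box RNA helicase, read 8.39, 8.34, 8.38, 8.44 and 8.40 on the unstretched arrays of set I. The values were 8.66, 8.72, 8.61, 8.63 and 8.83 after 1 h, 8.95, 9.05, 8.998, 9.06 and 9.06 after 4 h and 8.99, 9.05, 9.03, 9.02 and 8.99 after 12 h. The Ddx18 values with stretch did not overlap those without, and the log2 change was 0.30 ± 0.043, 0.63 ± 0.043 and 0.62 ± 0.043 after the 3 times (limma, adjusted p = 4.59e-05, 8.48e-10 and 7.55e-10). Ddx18 controls of set II read 8.53, 8.72, 8.55, 8.69 and 8.62, against 9.03, 8.9998, 8.91, 9.08 and 8.92 after 24 h and 9.08, 9.32, 9.08, 8.96 and 9.20 after 48 h. By this probe set, no Ddx18 value with stretch reached the control range. The log2 change of Ddx18 was 0.37 ± 0.066 and 0.50 ± 0.066 after 24 h and 48 h (limma, adjusted p = 0.000999 and 1.82e-05).

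Without stretch, Ddx56 (probe set 1389389_at), another DEAD-box helicase, read 8.41, 8.44, 8.51, 8.48 and 8.40 on the 5 arrays of set I. Stretched arrays gave 8.60, 8.79, 8.48, 8.70 and 8.63 after 1 h, 8.79, 8.69, 8.73, 8.85 and 8.84 after 4 h and 8.87, 8.74, 8.78, 8.82 and 8.79 after 12 h for Ddx56. Ddx56 was above every control on the arrays of 4 h and 12 h and overlapped the controls on those of 1 h. Ddx56 differed by 0.19 ± 0.051, 0.33 ± 0.051 and 0.35 ± 0.051 log2 after the 3 times, with limma adjusted p of 0.0148, 3.84e-05 and 1.77e-05. Values of Ddx56 in set II were 8.26, 8.32, 8.31, 8.44 and 8.51 without stretch, 8.81, 9.04, 8.85, 9.16 and 8.82 after 24 h and 9.17, 9.18, 9.02, 8.89 and 8.98 after 48 h. The later Ddx56 groups were also apart from their controls. Ddx56 differed by 0.57 ± 0.079 and 0.68 ± 0.079 log2 after 24 h and 48 h, with limma adjusted p of 0.000132 and 5.3e-06. Nip7, an assembly factor, changed by 0.40 ± 0.060 at 1 h, 0.57 ± 0.060 at 4 h and 0.48 ± 0.058 at 48 h. Nop16, a nucleolar assembly factor, was at 0.34 ± 0.043 and 0.49 ± 0.044. Rrp1b, a nucleolar protein of ribosomal RNA processing, was at 0.44 ± 0.039 and 0.33 ± 0.060, and when all its probe sets were averaged its 24 h and 48 h calls were lost (limma adjusted p = 0.181 and 0.115).

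Sets I and II shared neither arrays nor controls. Across the 40 genes the change at 4 h and the change at 48 h had a Pearson r of 0.726 and a Spearman rho of 0.722, a description across genes, which are not independent replicates and which share their probe sets in both sets. Over all genes the Pearson r was 0.727. Rrp12 and Nhp2 lay well above the line of equal change. Genes below it included Rrp1b, Ddx18, Nop58, Wdr43, Nolc1, Nip7, Heatr1 and Ddx21. No difference between the sets was tested.

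**Figure D4:**
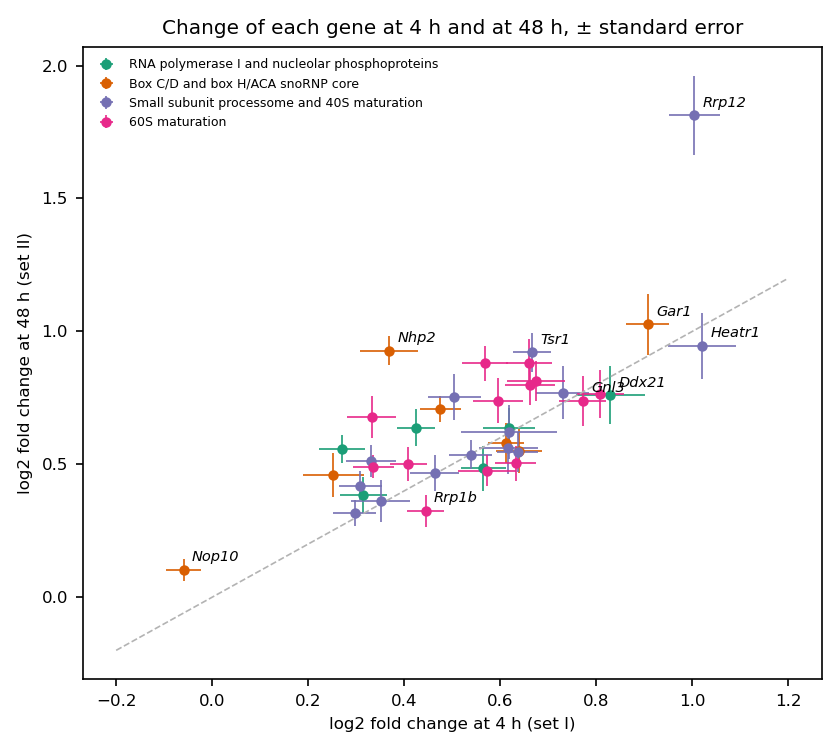
Log2 fold change of each of the 40 genes at 4 h in set I (horizontal axis) against that at 48 h in set II (vertical axis), coloured by role, with standard errors as bars and a dashed line of equal change. All points but Nop10 lie above 0 on both axes, and Rrp12 stands apart at 1.81 on the vertical axis.

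Of the 40 genes, 10 were read by more than 1 probe set, which gave 14 further probe sets. Of these, 7, 13, 12, 7 and 7 were called higher in order of time, and none was called lower. Over all genes, read by the brightest probe set, the share called higher was 8.24%, 17.1%, 19.4%, 13.5% and 22.5%. No share was computed over the further probe sets of all genes. Both other probe sets of Rrp12 were called at all 5 times, with 48 h changes of 1.497 and 1.478 log2. The 3 further probe sets of Nolc1 differed. The first of them (mean 9.27 log2) was called at all 5 times, with changes of 0.39, 0.99, 0.85, 0.55 and 0.79 log2, and passed 1.5-fold at 4, 12 and 48 h. Another (mean 6.89) was called at 4 h and 12 h, at 0.77 and 0.75, both past 1.5-fold, and the dimmest (mean 4.645) was never called, with changes of 0.19, 0.02, 0.07, 0.0035 and 0.01. The second probe set of Ddx21 was called at 1, 4 and 12 h (0.38, 1.17 and 1.09) and not in set II, where its SE was 0.23. Its lowest set II values, 7.715 and 8.053 log2, came from replicate 4 of the control and of 24 h, arrays taken up in the next paragraph. The part of those arrays in the missing calls was not tested. The second probe set of Nop56 was called at 4 h and 12 h (0.79 and 0.69) and not at 1, 24 or 48 h. For Ddx18 the second probe set was called at 4 h and 12 h (0.48 and 0.46), under 1.5-fold and overlapping the controls. It was not called at 1, 24 or 48 h (0.20, 0.44 and 0.34).

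Replicate 4 of the set II control and replicate 4 of 24 h had the highest ratio of the signal at the end of the Gapdh transcript to that at its start, 1.02 and 0.953 log2, against 0.092 to 0.628 on the other arrays of set II. A high ratio is a sign of shortened RNA. Without both arrays, 36 of the 40 genes were called higher at 24 h and 39 at 48 h, with medians of 0.43 and 0.64 log2. The 24 h calls lost were those of Ncl, Nol6 and Ddx10, with limma adjusted p of 0.0642, 0.104 and 0.066. The same arrays were also highest by the ratio of Actb, at 2.334 and 2.418 log2. Other arrays of set II ran from 1.675 to 2.226 by Actb, and every array of set I was lower, at 1.076 to 1.542. By Gapdh the sets overlapped, set I running from -0.003 to 0.328. Leaving out the named arrays does not address the difference between the sets in the Actb ratio.

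To show what the genes share in sequence, their promoters were read from RefSeq (rat assembly GRCr8), from 250 bases before to 50 after the start of the gene. Of the 40 genes, 37 had an entry, and Bop1, Wdr43 and Rrs1 had none. The E-box CACGTG, a palindrome and the letters that the growth regulator Myc with its partner Max is known to bind, was present in 14 of 37 (37.8%), against 6.65% of all 27457 promoters and 8.94% of those of 11700 genes on the array. The ETS-type motif CCGGAAGT, searched on both strands, was in 13 of 37 (35.1%), against 4.01% and 6.82%, and a palindromic CG element known from promoters of growth genes was in 0 of 37, against 0.433% and 0.812%. A match is a description and not a site of binding, and no test was made.

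The 16 E-boxes of the 14 genes follow in the direction of the gene with up to 10 bases on either side, the E-box in capitals and the position of its first base in brackets, counted from the start of the gene at +1. Of the 16, 13 began within 50 bases of the start.
Mybbp1a (-156): agtttctacaCACGTGtgcgagcaca
Mybbp1a (-1): ctttcgagccCACGTGtttggttcag
Fbl (+22): cgcttttttcCACGTGtgaaagcctg
Dkc1 (-184): cgtcccggcgCACGTGcgggccccac
Utp4 (-25): cgcacgcgcgCACGTGggaccggggc
Utp18 (-90): gagtgtcggtCACGTGgttcgaggca
Utp18 (+4): agtggggctcCACGTGaacgtctgcg
Nol6 (-2): cgtttaggccCACGTGgggagctacg
Bysl (+33): gccggcttcaCACGTGtaaactttgt
Tsr1 (+21): ttactcggtgCACGTGggcagttaga
Rrp12 (+4): tgagaatacaCACGTGggttctgctg
Pes1 (-50): ctaagcggggCACGTGcggtaggaag
Nop2 (+39): tccccaagtgCACGTGgagcgg
Gnl3 (-25): ttccagttcgCACGTGgcgcccgaga
Ebna1bp2 (+31): gtcttgctggCACGTGgagtggcagc
Ddx18 (-13): cggaactgcgCACGTGcatctgtcgc

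The promoters of Rrp12, which had the largest change, and of Mybbp1a, which holds 2 E-boxes, are given whole, with the E-box in capitals. They lie at chr1:250655269-250655568 on the minus strand and chr10:57555208-57555507 on the plus strand of GRCr8.
Rrp12: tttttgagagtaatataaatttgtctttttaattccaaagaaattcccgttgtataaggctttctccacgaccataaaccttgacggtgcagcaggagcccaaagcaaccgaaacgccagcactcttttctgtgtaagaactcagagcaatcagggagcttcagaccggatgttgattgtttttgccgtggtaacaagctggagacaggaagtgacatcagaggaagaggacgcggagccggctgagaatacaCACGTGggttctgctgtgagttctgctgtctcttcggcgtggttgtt
Mybbp1a: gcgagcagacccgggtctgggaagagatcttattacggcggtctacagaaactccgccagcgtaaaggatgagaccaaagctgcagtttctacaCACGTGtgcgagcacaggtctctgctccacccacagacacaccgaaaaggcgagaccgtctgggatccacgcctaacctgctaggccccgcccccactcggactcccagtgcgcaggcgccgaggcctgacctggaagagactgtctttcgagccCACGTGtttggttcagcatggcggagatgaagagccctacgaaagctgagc

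Of the 37 genes with an entry, those with and without the E-box spanned overlapping ranges of change. At 4 h the median was 0.55 log2 for the 14 genes with it (0.25 to 1.00) and 0.56 for the 23 without (-0.06 to 1.02). At 48 h it was 0.67 (0.36 to 1.81) and 0.56 (0.10 to 1.03). Heatr1, Gar1 and Ddx21, among the largest changes, had no CACGTG in this window.

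Beyond the 40, a list of 97 other ribosome biogenesis genes was measured. Of them 37, 82, 81, 64 and 83 were called higher in order of time, against 8.24%, 17.1%, 19.4%, 13.5% and 22.5% of all genes. Their medians were 0.12, 0.36, 0.32, 0.28 and 0.40 log2, while the median over all genes lay between -0.0035 and 0.0445. These medians were lower than those of the 40. Both lists were chosen with earlier results of these data known, and the part of that choice in the difference was not tested. Called higher and at least 1.5-fold were 0, 11, 10, 6 and 27, against 0.999%, 1.76%, 1.7%, 1.71% and 3.83% of all genes. Rrp8, Rpf2 and Ppan changed most at 1 h (0.47, 0.43 and 0.42), Polr1g, Gtpbp4 and Utp20 at 4 h (0.84, 0.84 and 0.75), and Mphosph10, Rpf2 and Emg1 at 12 h (0.72, 0.72 and 0.71). At 24 h they were Polr1g, Rpf2 and Ppan (0.70, 0.65 and 0.63), and at 48 h Polr1g, a subunit of RNA polymerase I, with Pno1 and Rbm19 (1.02, 0.98 and 0.98). Nop53 alone was called lower, at 4 h (-0.16) and 12 h (-0.25).

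The 42 ribosomal proteins that had a probe set of their own, the products that the pathway assembles, had medians near 0. They were far brighter than the list above: control sums in set I were 455360 to 460161 for these 42 and 43910 to 44907 for the 97. Whether this brightness limits the size of their changes was not tested. Of their estimates, 32, 37, 37, 38 and 39 lay above 0 in order of time. Higher calls numbered 1, 6, 10, 1 and 5 in order of time, against 8.24%, 17.1%, 19.4%, 13.5% and 22.5% of all genes, and none was called lower. The medians were 0.02, 0.03, 0.05, 0.03 and 0.06 log2. Summed linear intensities in set I ran 455360 to 460161 without stretch, 464323 to 472286 after 4 h and 471286 to 477867 after 12 h. In set II they ran 414243 to 421724 without stretch, 422276 to 435875 after 24 h and 426837 to 442386 after 48 h. The sums lay above every control at those times and overlapped the controls at 1 h. The number called higher varied from 0 to 2, 3 to 12, 5 to 20, 0 to 4 and 3 to 19 over the alternatives of test, scaling and filter. Rpl28 was among the 3 largest rises at 1, 4, 12 and 48 h, at 0.33, 0.31, 0.42 and 0.42. With Rpl28 came Rpl11 and Rpl18 at 4 h (0.15 and 0.14), Rpl11 and Rpl14 at 12 h (0.19 and 0.16), and Rpl39 and Rps13 at 48 h (0.23 and 0.22), while the single call at 24 h was Rps28 (0.18). Ribosomal protein genes have many near-identical processed copies; a probe set read here matched 1 annotated gene.

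**Figure D5:**
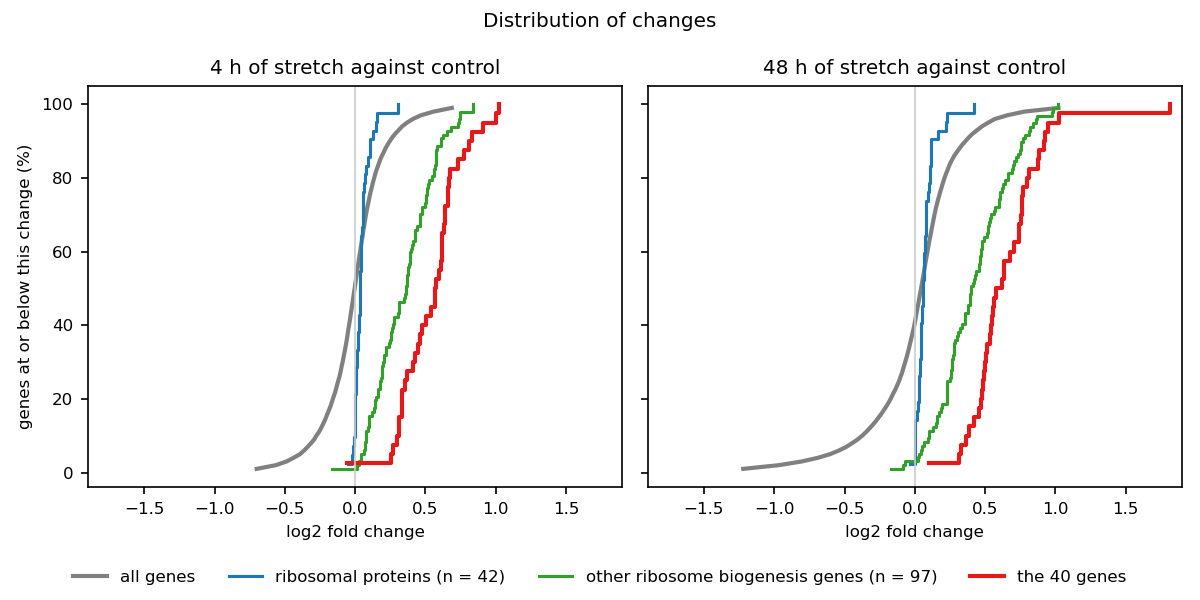
Cumulative share of genes (vertical axis, percent) at or below each log2 fold change (horizontal axis) at 4 h and 48 h, for the 40 genes, the 97 other ribosome biogenesis genes, the 42 ribosomal proteins and all genes (drawn from percentile 1 to 99). The curve of the 40 genes lies farthest to the right, with medians of 0.57 and 0.60, and that of the ribosomal proteins lies near 0.

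Markers of other cells were read beside these changes, as called genes at 1, 4, 12, 24 and 48 h in this order and as the sum of linear intensities over the list, which ranges over the 5 arrays of a group. No marker is at 0 on this scale. Over all genes, 8.3%, 19.2%, 19.7%, 10.1% and 18.4% were called lower at the 5 times, and 8.24%, 17.1%, 19.4%, 13.5% and 22.5% higher. Some counts lay near these shares, such as 1 of 11 macrophage markers lower at 1 h and 4 of 24 cell cycle genes lower at 4 h. Called lower were 1, 3, 4, 4 and 9 of 11 macrophage markers, and called higher were 0, 0, 0, 0 and 0. The macrophage sum was 1627 to 1939 without stretch, 1567 to 1847 after 1 h, 1507 to 1716 after 4 h and 1387 to 1563 after 12 h in set I, and 6504 to 7395 without stretch, 5497 to 5872 after 24 h and 3621 to 4489 after 48 h in set II. The number called lower was 0, 5, 5, 3 and 7 of 9 endothelial markers, and called higher were 1, 0, 0, 0 and 0. The endothelial sum was 2424 to 2924 without stretch, 2352 to 2740 after 1 h, 1913 to 2361 after 4 h and 1911 to 2251 after 12 h in set I, and 3418 to 4459 without stretch, 3134 to 3521 after 24 h and 2508 to 2689 after 48 h in set II. Lower calls numbered 2, 6, 6, 1 and 6 of 12 fibroblast markers, and called higher were 0, 0, 0, 2 and 1. The fibroblast sum was 72773 to 78158 without stretch, 70726 to 73097 after 1 h, 66418 to 71202 after 4 h and 67954 to 71770 after 12 h in set I, and 77892 to 81020 without stretch, 73274 to 76967 after 24 h and 66120 to 74138 after 48 h in set II. Lower calls came to 4, 5, 7, 5 and 8 of 15 cardiomyocyte markers, and called higher were 0, 0, 0, 1 and 2. The cardiomyocyte sum was 145423 to 150696 without stretch, 140085 to 145795 after 1 h, 140670 to 148212 after 4 h and 136630 to 140922 after 12 h in set I, and 142843 to 146527 without stretch, 134926 to 142821 after 24 h and 125775 to 132172 after 48 h in set II. Of 24 cell cycle genes, 0, 2, 2, 5 and 3 were called higher and 0, 4, 9, 0 and 0 lower. The macrophage, endothelial, fibroblast and cardiomyocyte sums all lay below every control of their set at 12 h and at 48 h. The fibroblast and endothelial sums did so at 4 h too, as did the macrophage, fibroblast and cardiomyocyte sums at 24 h, while at 1 h each sum overlapped its controls. The part of these shifts in the change of the 40 genes was not tested.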

How the data were processed

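The deposited series matrix holds linear RMA intensity values for 31099 probe sets on 35 Affymetrix rat arrays. Per the study's methods the authors normalized them by Robust Multichip Average in GeneSpring, and the deposited intensities were taken to log2 here. RMA puts arrays on a common scale, so a change in total RNA per cell is not seen. 471 values in 427 probe sets, none of a member, had been turned into dates and were restored. 57 control probe sets were left out, 31042 were tested, and 20826 of them read 1 gene alone in the platform annotation. Promoters were taken from RefSeq (GRCr8). A gene was read by its brightest probe set (mean log2 over 35 arrays). Each set was fitted on its own with limma 3.58.1 in R 4.3.3, with 1 mean per group and Benjamini-Hochberg adjustment over all probe sets of a comparison; scripts were tested on simulated data. Tables used Python 3.11.15, pandas 2.3.3 and numpy 2.4.6. The labels give the controls only the letters a and b and name no set. That a is set I and b is set II was inferred from the study's 2 sets with own controls. Values on every array are printed for members past 1.5-fold with adjusted p under 0.05 at any time and for the largest change of each role group at each time; Nop10 was added after its values were seen. For the lists of other genes the 3 largest called changes in each direction are named. The members and lists were chosen with earlier results of these data known. Alternatives were other tests, scalings, filters, probe set rules and left-out arrays.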

Additional observations from a re-analysis of the deposited data

Results flagged for a closer look

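In 8 of 175 groups of 5 arrays examined, 1 array stood apart from the other 4 by Dixon's ratio, and chance flags about 1 in 20 groups. They were Ddx21 in replicate 1 of 24 h (10.197 log2, below the others), Nop58 in replicate 5 of the set I control (10.432), Fbl in replicate 2 of 4 h (10.55), Nhp2 in replicate 5 of 1 h (10.197), Utp18 in replicate 2 of 12 h (6.856), Tsr1 in replicate 5 of 12 h (10.24), Rrs1 in replicate 3 of 1 h (8.973) and Mrto4 in replicate 5 of 1 h (8.547). In 2 cases the change differed between times of a set by at least 1.5-fold with a limma adjusted p under 0.05. Heatr1 was higher at 4 h than at 1 h by 0.6051 log2, and Rrp12 was higher at 48 h than at 24 h by 0.6501 log2.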

How the results depend on the processing

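Of 184 called member values, 11 alternatives gave 1918 repeats, of which 1908 kept direction and call, 10 lost the call and none reversed. Leaving out 1 array at a time gave 1840 repeats, with 38 calls lost, over 10 values, and none reversed. The count called higher ranged from 27 to 29 at 1 h and from 36 to 39 at 24 h over the alternatives, and from 24 to 28 and 35 to 39 with 1 array left out. The replicate numbers showed no clear pairing. The median correlation of same-numbered deviations was -0.00275 in set I and -0.0415 in set II. Of the arrays, 4 of 20 and 3 of 15 correlated best with their own number. In set II same-numbered pairs of control and 24 h ran from 0.0352 to 0.539. Those of control and 48 h ran from -0.393 to 0.102, and those of 24 h and 48 h from -0.247 to 0.1995. Unlike-numbered pairs of set II ran from -0.575 to 0.511, so shared cultures could not be judged from these values. A replicate block left 28, 39, 39, 39 and 39 genes called higher at the 5 times and gave 0 calls higher from 4 h to 12 h, as did array weights and a fit of the compared groups alone (0 each). Quantile normalization called 1 gene lower at 4 h (Nop10). The 12 h median was 0.53 with arrays centred on their median (0.5326) and with all probe sets averaged (0.5348). Genes past 1.5-fold from 1 h to 4 h numbered 2 with array weights or all probe sets averaged, and 0 to 2 with 1 array left out. From 4 h to 12 h, 8 genes were called lower with dim probe sets left out and 3 with probe sets averaged, and the 1 call higher became 0 to 1 with 1 array left out. The median from 1 h to 12 h was 0.253 to 0.286 with 1 array left out. From 24 h to 48 h, 0 genes passed 1.5-fold with probe sets averaged, and 0 to 1 with 1 array left out. Nop10, never called, changed sign at 1 h to 0.0151 and at 12 h to 0.0216 with arrays centred, and at 1 h to 0.0003 without replicate 4 of 1 h, within -0.0254 to 0.0003 with 1 array left out. Among the lists of other genes, alternatives moved cell cycle genes called higher at 48 h from 3 to between 2 and 10, and ribosomal proteins at 48 h from 5 to between 3 and 19. Leaving out the 2 arrays of highest end-to-start ratio was chosen after seeing the data. The causes of these shifts were not tested, and the number of arrays limits what can be seen.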
